A study of Mus musculus with 9 samples.

Results

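The mRNAs of PRC1.6, a Polycomb repressor complex of germline and meiotic genes, were followed in male germ cells of the mouse at entry into meiosis. The complex was represented by 10 genes chosen by name, as subunits of the complex, from the 24505 genes counted: Mga, Max, E2f6, L3mbtl2, Pcgf6, Rnf2, Ring1, Cbx3, Rybp and Yaf2. All 10 were in the table and all 10 passed the filter on low counts in each comparison. The counts came from 9 libraries of germ cells. Intermediate and type B (In/B) spermatogonia were taken at P17 and preleptotene (PL) spermatocytes at P19, the latter from RA-sufficient and from RA-deficient testes, with 3 libraries in each of the 3 groups. Cells were sorted by their EGFP from the testes of Uchl1-eGfp mice, of C57BL/6 origin and outcrossed to CD-1. In these mice the promoter of Uchl1 drives EGFP, strongly in spermatogonia and weakly in PL spermatocytes, and the testes of several animals were pooled for a preparation. All mice had received bis-(dichloroacetyl)-diamine (WIN), a blocker of retinoic acid (RA) synthesis, at 100 µg per g of body weight each day from P1, with its last day given as P10 or P11 depending on the source. At P11 each mouse was injected once with RA (10 µl, 10 µg per µl), which starts spermatogonial differentiation in synchrony. In RA-sufficient mice WIN was then stopped, so that endogenous RA synthesis could resume, and in RA-deficient mice it was continued. The In/B donors are described in the study's methods as RA-sufficient.

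Polycomb repressive complexes of the first class place ubiquitin on a core histone through the RING proteins RNF2 (RING1B) and RING1. They are sorted into variants by which PCGF protein joins the RING pair, and PCGF6 defines the sixth. This variant is brought to DNA by MGA with its partner MAX and by E2F6 with a DP partner, while L3MBTL2 and the heterochromatin protein CBX3 (HP1γ) are held in the same complex. RYBP and its paralog YAF2 join the RING proteins and raise their ligase activity. In embryonic stem (ES) cells the complex keeps germline and meiotic genes silent, and loss of MAX, MGA or PCGF6 there lets many of them be expressed.

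Of the DNA letters that these proteins read, the E-box and the E2F core occurred in many of the known target promoters, and the T-box core in 1. Promoters of RefSeq (GRCm38.p6), from 250 bases before to 50 bases after each start site, were searched on both strands for the E-box CACGTG, which MAX dimers bind, for GCGGGA, a core of E2F sites, and for GGTGTGA, a core of T-box sites, and none of these motifs holds another within it. Of 32851 promoters in all, 7.15% held CACGTG, 20% held GCGGGA, 3.98% held GGTGTGA, and 1.99% held both CACGTG and GCGGGA. Among 15 germline genes known as targets of the complex in ES cells, the promoters of 8 held CACGTG, those of 10 held GCGGGA, that of 1 held GGTGTGA, and those of 6 held both CACGTG and GCGGGA. A gene was counted where any of its promoters held the motif, whereas the shares above are over single promoters. A match is a description of the letters and was not taken as a bound site, and the targets were known as such beforehand. Both CACGTG and GCGGGA lay wholly before the start in 3 target promoters, those of Sycp3 (synaptonemal complex), Ddx4 (germ cell RNA helicase) and Mael (piRNA pathway), and these are shown with the motifs in capitals, in either orientation. The promoter of E2f6, a member of the complex with a GCGGGA core of its own, is shown beside them. Each line gives the 250 bases before the start, 5′ to 3′ on the strand of the gene, at chr10:88459337-88459586 (plus strand), chr13:112652311-112652560 (minus strand), chr1:166238745-166238994 (minus strand) and chr12:16810715-16810964 (plus strand).
Sycp3: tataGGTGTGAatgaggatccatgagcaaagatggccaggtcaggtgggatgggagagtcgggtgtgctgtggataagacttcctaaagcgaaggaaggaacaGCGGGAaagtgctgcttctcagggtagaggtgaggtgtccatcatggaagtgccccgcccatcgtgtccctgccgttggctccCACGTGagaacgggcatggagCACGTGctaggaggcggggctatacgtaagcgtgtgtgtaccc
Ddx4: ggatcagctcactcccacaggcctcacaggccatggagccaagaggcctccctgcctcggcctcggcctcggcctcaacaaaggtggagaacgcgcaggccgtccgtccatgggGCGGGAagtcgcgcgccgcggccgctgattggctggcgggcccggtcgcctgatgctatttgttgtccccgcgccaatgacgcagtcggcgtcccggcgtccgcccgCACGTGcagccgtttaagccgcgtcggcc
Mael: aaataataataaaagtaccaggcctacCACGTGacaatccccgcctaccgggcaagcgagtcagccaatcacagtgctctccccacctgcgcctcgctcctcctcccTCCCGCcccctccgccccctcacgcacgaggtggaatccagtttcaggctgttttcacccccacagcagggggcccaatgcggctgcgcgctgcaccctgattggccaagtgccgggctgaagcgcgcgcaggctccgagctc
E2f6: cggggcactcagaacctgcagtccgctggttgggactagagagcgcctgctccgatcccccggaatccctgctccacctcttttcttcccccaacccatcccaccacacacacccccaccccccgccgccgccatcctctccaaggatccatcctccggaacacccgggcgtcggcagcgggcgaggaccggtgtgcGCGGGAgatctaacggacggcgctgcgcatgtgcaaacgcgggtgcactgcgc

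In the Sycp3 promoter CACGTG began 64 and 43 bases before the start, GCGGGA 147 bases before it and GGTGTGA 246 bases before it. The Ddx4 promoter held CACGTG 29 and GCGGGA 136 bases before the start. In that of Mael the same motifs began 223 and 143 bases before it, the latter read on the opposite strand. The core in the E2f6 promoter began 53 bases before the start. Promoters were given for 8 of the 10 members, all but Rybp and Yaf2, and besides E2f6 they held GCGGGA in Rnf2 and CACGTG in Max, so that 2 members held the first motif, 1 the second and 0 the T-box core.

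Total counts per library ran from 12612959 to 27042274, and each member had at least 132 counts in every library. The labelled cell types were compared with their markers. The summed level of 6 PL markers was 267 to 592 CPM (counts scaled to the TMM-normalised library size) in the In/B libraries and 1665 to 2219 CPM in the 6 PL libraries. By gene, 4 of the 6 were higher in both PL groups than in In/B by the test given below, and 2 did not pass. Rec8, 1 of these 2, had log2 fold changes of -0.92 in RA-sufficient and -1.32 in RA-deficient PL. Sycp3, 1 of the 4, is also among the ES cell targets below. The summed level of 7 spermatogonial markers was 3657 to 5349 CPM in In/B and 808 to 928 CPM in RA-sufficient PL. In RA-deficient PL it was 1320 CPM in replicate 3 and 3124 and 3252 CPM in the others. Uchl1, whose promoter drives the EGFP used for sorting, is 1 of the 7 and made up most of that sum. Its level was 2352 to 3657 CPM in In/B, 425 to 613 CPM in RA-sufficient PL and 1728, 1885 and 991 CPM in RA-deficient PL. The sum is therefore not a check independent of the sorting. Among the 7, 5 (Uchl1 included) were higher and 1, Ccnd2, lower in RA-deficient than in RA-sufficient PL by the test given below. Kit was at 327 to 404 CPM in In/B, 20.2 to 41.0 CPM in RA-sufficient PL and 561, 521 and 20.3 CPM in RA-deficient PL. Dmrt1 was at 534 to 711, 72.1 to 76.8 and 460, 485 and 111 CPM in the same groups. For both genes replicate 3 was the RA-deficient library nearest RA-sufficient PL. Replicate 3 of RA-deficient PL stood apart from its group, with an r of log2 levels of 0.903 and 0.904 to the others and of 0.984 between them. To a lesser degree replicate 1 did so in In/B (0.962 and 0.963, against 0.994 between the others). In RA-sufficient PL it was also replicate 1 (0.956 and 0.946, against 0.990). Markers of Sertoli cells, the somatic cells of the tubule, moved with the groups. Of 9 listed, 8 were in the table, and all 8 were higher in RA-sufficient PL than in In/B and lower in RA-deficient than in RA-sufficient PL, and their sum was 2808 to 3644 CPM in RA-sufficient PL against 66.4 to 344 CPM in In/B and 286 to 503 CPM in RA-deficient PL. Macrophage and blood markers summed to at most 7.76 CPM in any library. The part of Sertoli RNA in the results for RA-sufficient PL was not tested. In bulk samples such as these, fewer cells of a type and less RNA per cell cannot be told apart.

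At the transition from In/B spermatogonia to PL spermatocytes the members of PRC1.6 moved in different directions. In RA-sufficient PL, 5 of the 10 differed from In/B by edgeR's quasi-likelihood test (adjusted p under 0.05 after Benjamini-Hochberg adjustment over all genes), with Pcgf6 higher and E2f6, L3mbtl2, Cbx3 and Yaf2 lower. That share lay below the 65% of all 15001 genes that passed the same test. In RA-deficient PL, 5 of the 10 differed from In/B, with Mga, Max and Pcgf6 higher and E2f6 and Cbx3 lower, against 36.7% of 14877 genes. Both comparisons share the In/B libraries. Between the PL groups, Mga and L3mbtl2 were higher in RA-deficient PL and none of the 10 was lower, against 23.6% of 15352 genes that passed in either direction, 11% higher and 12.6% lower. The median log2 fold change of the members was -0.15 in RA-sufficient PL against In/B, where that of all genes tested was 0.04. The corresponding medians were 0.35 and 0.00 where RA-deficient PL was set against In/B, and 0.56 and -0.09 between the PL groups. With the study's added threshold of an absolute log2 fold change over 1, the members that passed were Pcgf6, E2f6 and Cbx3 in RA-sufficient PL and Pcgf6 and E2f6 in RA-deficient PL, and 0 between the PL groups, against 45.4%, 23.2% and 15.5% of all genes. The libraries of both groups did not overlap for 1 higher and 4 lower members in RA-sufficient PL against In/B (71.5% of all genes, 35.6% higher and 35.9% lower), for 3 higher and 2 lower in RA-deficient PL against In/B (54.6%, with 21% and 33.6%), and for 5 higher and 0 lower in RA-deficient against RA-sufficient PL (47.4%, with 20.1% and 27.3%). DESeq2 passed 4 members between the PL groups at an adjusted p under 0.05, and 4970 of all 15352 genes, against 3629 with edgeR.

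**Figure D1:**
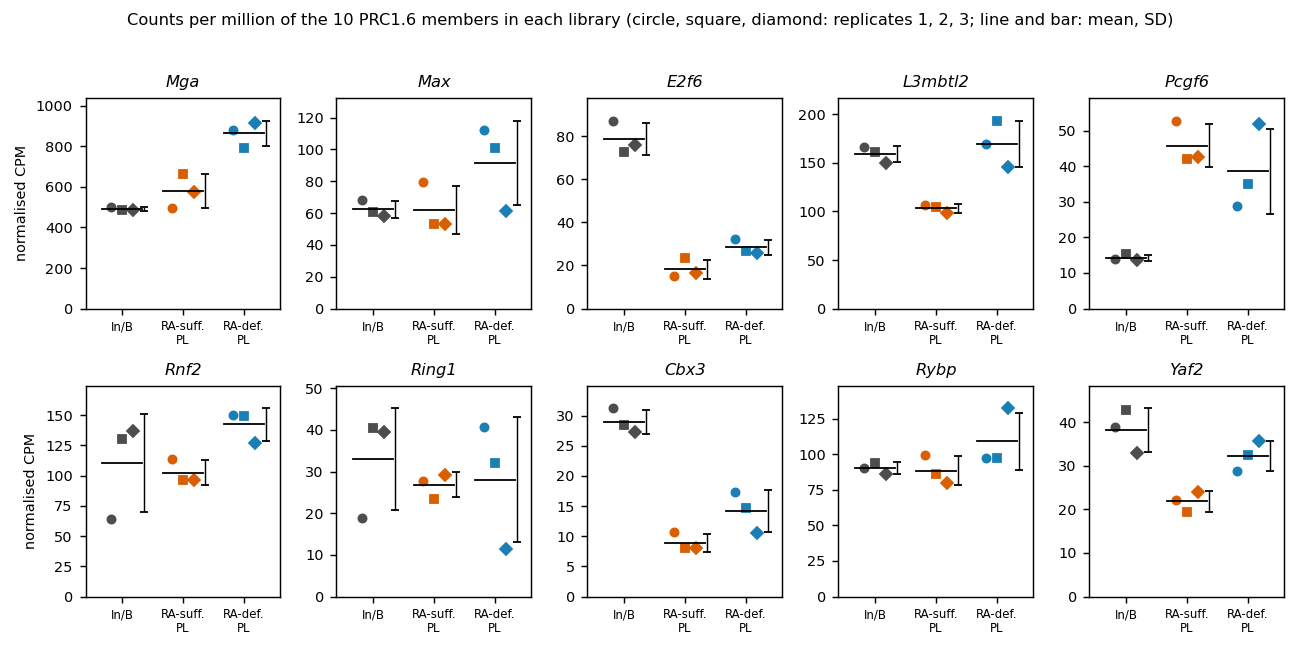
Each panel plots 1 member, with the normalised CPM on a linear axis from 0 for the 9 libraries in 3 groups (circle, square and diamond are replicates 1, 2 and 3, and the line and bar are the mean and SD, n = 3). E2f6 and Cbx3 were highest in all 3 In/B libraries, Pcgf6 was lowest there, and Mga was highest in the 3 RA-deficient PL libraries.

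**Figure D2:**
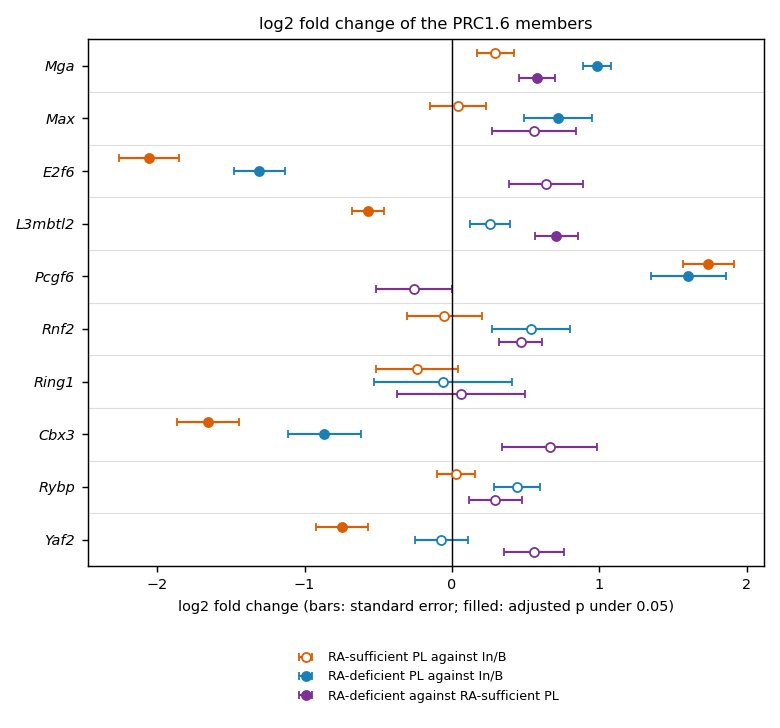
The log2 fold change of each member is plotted on the horizontal axis for the 3 comparisons, with the standard error as a bar and a filled point where a member passed edgeR's quasi-likelihood test (adjusted p under 0.05). Points for E2f6 reached -2.06 and those for Pcgf6 1.74. For RA-deficient against RA-sufficient PL 9 of the 10 members lay above 0, and 2 of the 10 passed. Above 0 in the same comparison were 7072 of all 15352 genes tested and 16 of 18 subunits of other PRC1 complexes.

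Mga encodes the scaffold that carries both a T-box and a leucine zipper domain for binding DNA, and the gene lies at chr2:119722964-119795317 (mm9, plus strand). Its level was 499.7, 486 and 484 CPM in the In/B libraries, 497, 663 and 576 CPM in RA-sufficient PL and 882, 793 and 915 CPM in RA-deficient PL. All 3 RA-deficient libraries were above the other 6, whereas the RA-sufficient and In/B libraries overlapped. Mga was 1.98-fold higher in RA-deficient PL than in In/B, a log2 fold change of 0.98 ± 0.10 (SE, n = 3 against 3, adjusted p = 0.000246 by edgeR's quasi-likelihood test). Against RA-sufficient PL the log2 fold change was 0.58 ± 0.12 (adjusted p = 0.0161), a call that was lost without replicate 3 of RA-sufficient PL (adjusted p = 0.0703), without replicate 1 of RA-deficient PL (adjusted p = 0.0676) and with scaling by library size alone (adjusted p = 0.0604). In RA-sufficient PL against In/B it was 0.30 ± 0.13 (adjusted p = 0.0658), and it passed without replicate 1 of RA-sufficient PL at 0.38 (adjusted p = 0.0108).

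Max encodes the small zipper protein that partners MGA, as well as MYC and the MXD proteins, and lies at chr12:78038256-78063235 (minus strand). It was at 68.4, 60.6 and 57.9 CPM in In/B, 79.3, 53.0 and 53.0 CPM in RA-sufficient PL and 112, 101 and 61.5 CPM in RA-deficient PL. The RA-sufficient libraries lay on both sides of the In/B libraries, and in RA-deficient PL replicate 3 lay well below the others. The log2 fold change of RA-deficient PL against In/B was 0.72 ± 0.23 (adjusted p = 0.042). The groups overlapped, and the call was lost in 7 of the alternatives, among them scaling by library size (0.41, adjusted p = 0.22) and leaving out any 1 library except replicate 3 of RA-deficient PL. Without that replicate Max was higher both against In/B (0.94 ± 0.13, adjusted p = 0.00088) and against RA-sufficient PL (0.80 ± 0.20, adjusted p = 0.0172), and with it the latter value was 0.56 ± 0.28 (adjusted p = 0.198). For RA-sufficient PL against In/B the log2 fold change was 0.04 ± 0.19 (adjusted p = 0.86).

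E2f6 encodes an E2F protein without an activation domain that represses its targets, and it showed the largest fall of the 10 members in both comparisons with In/B. The gene lies at chr12:16817771-16833549 (plus strand). Its level was 87.3, 72.9 and 76.1 CPM in In/B, 14.9, 23.3 and 16.4 CPM in RA-sufficient PL and 32.5, 26.9 and 25.8 CPM in RA-deficient PL, so that no library of one group overlapped with those of another. E2f6 was 4.16-fold lower in RA-sufficient PL (log2 fold change -2.06 ± 0.20, adjusted p = 6.17e-05) and 2.47-fold lower in RA-deficient PL (-1.31 ± 0.18, adjusted p = 0.000986) than in In/B. Both calls were kept under every alternative run. RA-deficient against RA-sufficient PL gave 0.64 ± 0.25, which did not pass (adjusted p = 0.107), except with all 9 libraries in a single fit. A copy of 1131 bases with 96.2% identity to E2f6 exons lies elsewhere in the genome, and how reads that match both were counted was not given in the sources used here.

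L3mbtl2, whose protein has MBT domains that bind chromatin, was lower in RA-sufficient PL than in either of the other groups. It lies at chr15:81494319-81518745 (plus strand), and 1023 of its exon bases overlap Chadl on the opposite strand. The libraries were at 166, 162 and 150.2 CPM in In/B, 107, 104 and 98.4 CPM in RA-sufficient PL and 169, 194 and 146 CPM in RA-deficient PL. The 3 RA-sufficient libraries were the lowest of the 9, and the other groups overlapped. L3mbtl2 was 1.48-fold lower in RA-sufficient PL than in In/B (log2 fold change -0.57 ± 0.11, adjusted p = 0.00179) and 0.71 ± 0.14 higher on the log2 scale in RA-deficient than in RA-sufficient PL (adjusted p = 0.0144). The latter call was lost without replicate 2 (adjusted p = 0.0626) or replicate 3 (adjusted p = 0.065) of RA-sufficient PL. In RA-deficient PL against In/B the value was 0.26 ± 0.14 (adjusted p = 0.187). That value passed without replicate 3 of RA-deficient PL (0.36 ± 0.11, adjusted p = 0.0295) and turned to -0.06 with scaling by library size alone, a scaling that moved the median over the whole table from 0.00 to -0.31.

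Cbx3 encodes HP1γ, which binds methylated histone tails. The gene lies at chr6:51420359-51433703 (plus strand) and has 4 near-identical copies elsewhere in the genome, of up to 1759 bases and 99% identity, so its counts are uncertain. They gave 31.2, 28.4 and 27.4 CPM in In/B, 10.7, 8.0 and 7.98 CPM in RA-sufficient PL and 17.3, 14.7 and 10.5 CPM in RA-deficient PL. All 6 PL libraries were below the 3 In/B libraries. The fall was 3.15-fold in RA-sufficient PL (log2 fold change -1.65 ± 0.21, adjusted p = 0.000206) and 1.82-fold in RA-deficient PL (-0.87 ± 0.25, adjusted p = 0.0271). The second call was lost without any 1 of the In/B libraries or without replicate 2 of RA-deficient PL, with an adjusted p of at most 0.0827. RA-deficient and RA-sufficient PL differed in Cbx3 by 0.66 ± 0.32 (adjusted p = 0.177), and by 0.86 ± 0.28 without replicate 3 of RA-deficient PL (adjusted p = 0.0409).

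Pcgf6, the subunit that gives the complex its name, was the 1 member that rose against In/B in both PL groups. It lies at chr19:47108109-47125380 (minus strand). It rose from 13.8, 15.2 and 13.8 CPM in In/B to 52.8, 42.1 and 42.5 CPM in RA-sufficient PL and 28.9, 35.0 and 51.9 CPM in RA-deficient PL. Every PL library was above every In/B library, and the PL groups overlapped, with replicate 3 of RA-deficient PL well above the other two. Pcgf6 was 3.34-fold higher in RA-sufficient PL (log2 fold change 1.74 ± 0.17, adjusted p = 6.27e-05) and 3.04-fold higher in RA-deficient PL (1.6 ± 0.26, adjusted p = 0.0022). These calls were kept in all alternatives run, and the second value was 1.34 ± 0.19 without replicate 3 of RA-deficient PL. The log2 fold change between the PL groups was -0.26 ± 0.26 (adjusted p = 0.508).

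The other PCGF genes, each of which defines another variant of PRC1, fell or did not pass the test in the comparisons with In/B. In RA-sufficient PL against In/B all 5 fell, with log2 fold changes of -0.81 ± 0.17 for Pcgf1, -2.05 ± 0.15 for Pcgf2, -0.78 ± 0.10 for Pcgf3, -1.09 ± 0.16 for Bmi1 and -1.22 ± 0.14 for Pcgf5 (highest adjusted p = 0.00259). In RA-deficient PL Pcgf1 (-1.20 ± 0.22, adjusted p = 0.00384) and Pcgf5 (-0.58 ± 0.13, adjusted p = 0.0121) fell, while Pcgf2, Pcgf3 and Bmi1 were at -0.31, 0.13 and -0.36 and did not pass. On the scale of CPM per kb of exon, which allows genes to be compared, the mean level of Pcgf6 in In/B was 3.49, the lowest of the family, against 16.2 for Pcgf3, 39.1 for Pcgf2, 44.2 for Pcgf1, 48.2 for Bmi1 and 88.2 for Pcgf5. In RA-sufficient PL it was 11.2, above Pcgf2 at 9.09 and Pcgf3 at 9.08 and below the others. In RA-deficient PL it was again the lowest of the family at 9.45, against 15.8 for Pcgf3, 17.1 for Pcgf1, 28.1 for Pcgf2, 33.4 for Bmi1 and 52.8 for Pcgf5. The level of Pcgf6 relative to Pcgf2 was 0.0995, 0.0894 and 0.0807 in In/B, 1.39, 1.31 and 1.03 in RA-sufficient PL and 0.226, 0.221 and 0.894 in RA-deficient PL. Relative to each of the 5, Pcgf6 was higher in every PL library than in every In/B library, by 2.51 to 3.78 on the log2 scale in RA-sufficient PL and 1.43 to 2.78 in RA-deficient PL. Between the PL groups Pcgf6 was lower in every RA-deficient than in every RA-sufficient library relative to Pcgf2, Pcgf3, Bmi1 and Pcgf5, by log2 differences of -1.80, -1.08, -0.90 and -0.82, and relative to Pcgf1 the groups overlapped (0.23). An exact two-sided permutation test on such ratios gave p = 0.1 for each of these differences without overlap, the smallest value that 3 against 3 libraries allow.

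**Figure D3:**
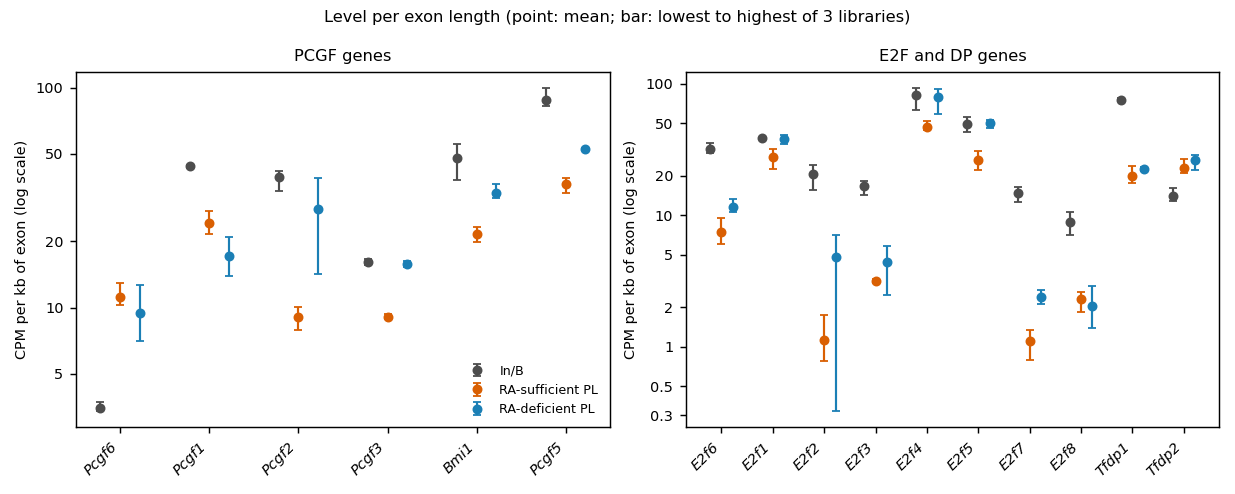
Mean CPM per kb of exon (points, log axis) with the lowest and highest of 3 libraries (bars) is plotted for the 6 PCGF genes on the left and for the E2F and DP genes on the right, by group. Pcgf6 had the lowest level of the PCGF genes in In/B at 3.49 and reached 11.2 in RA-sufficient PL, while E2f6 fell from 32.1 to 7.42.

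Rnf2 and Ring1 encode the RING ligases that all variants of PRC1 share, and neither passed the test in any comparison. Rnf2 (chr1:153316536-153347953, minus strand) was at 64.2, 130.2 and 137 CPM in In/B, 114, 96.5 and 96.5 CPM in RA-sufficient PL and 151, 149 and 127 CPM in RA-deficient PL. The RA-deficient libraries were all above the RA-sufficient ones, with a log2 fold change of 0.47 ± 0.15 (adjusted p = 0.0568) that passed without replicate 3 of RA-deficient PL (0.56 ± 0.13, adjusted p = 0.0113). It passed also with DESeq2. Replicate 1 of In/B was far below the other two, and without it Rnf2 was lower in RA-sufficient PL (-0.33 ± 0.13, adjusted p = 0.0498).

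Ring1 (chr17:34157737-34161625, minus strand) was at 19, 40.5 and 39.5 CPM in In/B, 27.8, 23.4 and 29.2 CPM in RA-sufficient PL and 40.6, 32.1 and 11.5 CPM in RA-deficient PL. The spread within In/B and within RA-deficient PL was as wide as any difference between groups, with log2 fold changes of -0.24 ± 0.28, -0.06 ± 0.47 and 0.06 ± 0.43 in the 3 comparisons. The low In/B library was replicate 1, as for Rnf2, and without it Ring1 was lower in RA-sufficient PL (-0.52 ± 0.17, adjusted p = 0.0268). The count of Rnf2 per kb relative to Ring1 was 3.63, 3.44 and 3.73 in In/B, 4.39, 4.42 and 3.54 in RA-sufficient PL and 3.97, 4.98 and 11.9 in RA-deficient PL. The libraries of RA-deficient PL were above those of In/B, by 0.78 on the log2 scale (exact two-sided permutation p = 0.1, the smallest possible), and by 0.31 without replicate 3.

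Rybp and Yaf2 encode related proteins that serve as alternative subunits of the variant complexes. Rybp (chr6:100178560-100237435, minus strand) was at 90.5, 94.1 and 86.2 CPM in In/B, 99.6, 86.0 and 79.9 CPM in RA-sufficient PL and 97.7, 97.5 and 132 CPM in RA-deficient PL. It passed in no comparison, with a log2 fold change of 0.44 ± 0.16 in RA-deficient PL against In/B (adjusted p = 0.0582) that passed with DESeq2 and with a filter at a mean of 50 counts. Copies of up to 4459 bases and 99.4% identity lie at 2 other places of the genome, so its counts are uncertain.

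Yaf2 (chr15:93114709-93167366, minus strand) was at 38.8, 42.7 and 32.8 CPM in In/B, 22.2, 19.3 and 24 CPM in RA-sufficient PL and 28.8, 32.3 and 35.6 CPM in RA-deficient PL. The RA-sufficient libraries were the 3 lowest of the 9. Yaf2 was 1.68-fold lower in RA-sufficient PL than in In/B (log2 fold change -0.75 ± 0.18, adjusted p = 0.00543). In RA-deficient PL the value was -0.07 ± 0.18 against In/B (adjusted p = 0.799) and 0.56 ± 0.21 against RA-sufficient PL (adjusted p = 0.0908). Per kb of exon, Rybp and Yaf2 stood at about the same level in In/B, with ratios of 0.98, 0.925 and 1.10, and Rybp was ahead in every PL library, with ratios of 1.89, 1.87 and 1.40 in RA-sufficient PL and 1.42, 1.27 and 1.56 in RA-deficient PL. The difference of the log2 ratio from In/B was 0.77 in RA-sufficient and 0.50 in RA-deficient PL (exact two-sided permutation p = 0.1 for each, the smallest possible).

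The order of the members by level changed between the groups. In In/B the highest mean levels per kb of exon were those of Rnf2 (36.5 ± 13.3 CPM per kb, SD, n = 3), E2f6 (32.1 ± 3.08), Mga (31.9 ± 0.565) and Max (31.1 ± 2.72), whose libraries overlapped from each to the next, and Pcgf6 was the lowest at 3.49 ± 0.197. In RA-sufficient PL the order began with Mga (37.7 ± 5.40), Rnf2 (33.8 ± 3.36) and Max (30.8 ± 7.55), which overlapped, while E2f6 (7.42 ± 1.83) was next to last and Cbx3 (2.75 ± 0.479) last. In RA-deficient PL Mga (56.3 ± 4.13) stood above Rnf2 (47.0 ± 4.38) with no overlap, and Rnf2 overlapped with Max (45.7 ± 13.3). L3mbtl2, Rybp and Yaf2 were in the middle of the order in all 3 groups, at 26.8, 20.2 and 20.3 CPM per kb in In/B, 17.4, 19.9 and 11.7 in RA-sufficient PL and 28.5, 24.5 and 17.2 in RA-deficient PL. The near-identical copies of Cbx3, Rybp and E2f6 make the places of these genes in the order uncertain, and the ratio of Rybp to Yaf2 as well. Such levels are of mRNA and give no measure of how much of each protein is in the complex.

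**Figure D4:**
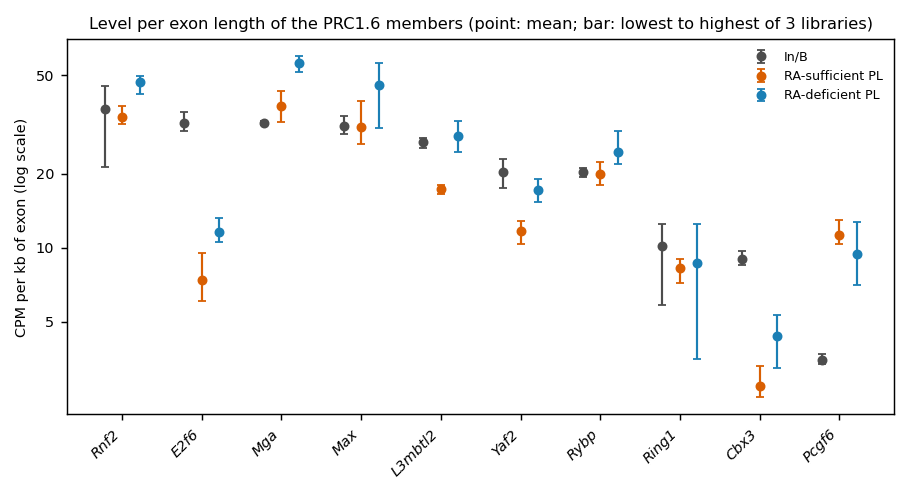
Mean CPM per kb of exon on a log axis (points) and the lowest to highest of 3 libraries (bars) are plotted for the 10 members by group, ordered by their level in In/B. E2f6 stood second in In/B at 32.1 and ninth in RA-sufficient PL at 7.42, and Pcgf6 rose from 3.49 to 11.2 and 9.45 in the PL groups.

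Genes with the most similar pattern to a member were sought among the 9697 genes whose mean reached 10 CPM, as the smallest root mean square difference of centred log2(CPM + 1) over the 9 libraries. For Mga these were Srrm2 (0.076), Upf2 (0.0764) and Tpr (0.0787), and for L3mbtl2 they were Gltscr2 (0.0877), Syvn1 (0.0942) and Urod (0.0998). For E2f6 they were Cpne1 (0.0845), Patz1 (0.135) and Wdr1 (0.136). Pcgf6 had less similar neighbours, Ripk1 (0.15), Vcl (0.153) and Bbx (0.158).

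Partners that the complex shares with other regulators mostly fell in RA-sufficient PL. Of 7 such cofactors, 7 passed the test in RA-sufficient PL against In/B, with Tfdp2 higher and the other 6 lower and a median log2 fold change of -1.19, beside 65% of all genes that passed, 33.8% higher and 31.2% lower. In RA-deficient PL against In/B 4 passed (1 higher, 3 lower), beside 36.7% of all genes, and with scaling by library size alone 7 did, when the genes that passed over the whole table went from 5459 to 5950. Only Ehmt1 and Ehmt2 passed between the PL groups, both higher in RA-deficient PL, beside 23.6% of all genes. Tfdp1, which encodes a DP partner of E2F6, was at 187 to 197 CPM in In/B, 44.7 to 59.8 CPM in RA-sufficient PL and 54.8 to 59.6 CPM in RA-deficient PL. Its log2 fold changes against In/B were -1.87 ± 0.14 and -1.58 ± 0.12 (adjusted p = 1.96e-05 and 9.94e-05). Tfdp2, the other DP gene, rose by 0.76 ± 0.14 and 1.07 ± 0.15 (adjusted p = 0.00124 and 0.00103). The deacetylase gene Hdac2 fell with Tfdp1, at -1.77 ± 0.11 and -1.34 ± 0.16 (adjusted p = 1.18e-05 and 0.00054). Hdac1 (-0.43 ± 0.12, adjusted p = 0.0109) and Wdr5 (-0.62 ± 0.13, adjusted p = 0.00255) fell in RA-sufficient PL, and in RA-deficient PL they were at -0.18 and -0.39 and did not pass. Ehmt1 and Ehmt2, which encode the GLP and G9a histone methyltransferases, fell in RA-sufficient PL (-1.36 ± 0.11 and -1.19 ± 0.16) and were higher in RA-deficient than in RA-sufficient PL by 0.81 ± 0.20 and 0.51 ± 0.12 (adjusted p = 0.0251 and 0.0223), calls that were lost without most single libraries of either PL group. Near-identical copies elsewhere make the counts of Tfdp1 and Hdac1 uncertain.

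Subunits of other PRC1 complexes changed in both directions from In/B, and most of those that differed between the PL groups were higher in RA-deficient PL. Of 18, 15 passed in RA-sufficient PL against In/B (5 higher, 10 lower), 12 in RA-deficient PL against In/B (7 higher, 5 lower) and 11 between the PL groups (10 higher in RA-deficient PL, 1 lower), with medians of -0.79, -0.11 and 0.60. Over all genes 65%, 36.7% and 23.6% passed in these comparisons, the last of them 11% higher and 12.6% lower. Kdm2b, Phc1, Scmh1 and Cbx7 rose in both PL groups. For Kdm2b, which brings a PCGF1 variant to CpG islands, the log2 fold changes were 1.31 ± 0.15 in RA-sufficient and 2.28 ± 0.18 in RA-deficient PL. Bcor, a partner of KDM2B in that variant, fell in RA-sufficient PL (-1.14 ± 0.23, adjusted p = 0.00212) and rose in RA-deficient PL (1.18 ± 0.22, adjusted p = 0.00461), with 23.1 to 37.3 CPM in In/B, 12.5 to 13.3 CPM in RA-sufficient PL and 52.5 to 65.4 CPM in RA-deficient PL. Auts2 was at 0.01 ± 0.13 in RA-sufficient PL and rose by 1.23 ± 0.13 in RA-deficient PL (adjusted p = 0.000369). Cbx2, a reader subunit of canonical PRC1, fell in both, with log2 fold changes of -3.29 ± 0.28 and -1.6 ± 0.30. Its level in RA-deficient PL was 72.2, 78.9 and 34.8 CPM, and that of Pcgf2 was 108, 133 and 48.9 CPM, so that replicate 3 was the lowest of its group for both, as it was for the sum of the spermatogonial markers, whose part in these differences was not tested. Cbx6 was the 1 subunit that passed as lower in RA-deficient than in RA-sufficient PL (-1.52 ± 0.26, adjusted p = 0.00757). Its counts are uncertain, since 1175 of its exon bases overlap Npcd on the same strand.

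The paralogs of the members gave a further background for E2f6, Cbx3 and L3mbtl2. Of 12 such genes 11 passed in RA-sufficient PL against In/B (2 higher, 9 lower), 3 in RA-deficient PL against In/B (each lower) and 4 between the PL groups (3 higher, 1 lower), beside 65%, 36.7% and 23.6% of all genes. Without replicate 3 of RA-deficient PL 7 passed between the PL groups, and without any other single library 1 or 2 did, while the genes that passed over the whole table went from 3629 to 6621 without that replicate and to between 1545 and 2255 without any other. The 7 other E2F genes all fell in RA-sufficient PL, and 3 of them fell in RA-deficient PL, where E2f1, E2f4 and E2f5 were at 0.14, 0.12 and 0.18 and E2f2 at -1.92 (adjusted p = 0.111) and did not pass. In RA-sufficient and RA-deficient PL the log2 fold changes were -3.67 ± 0.22 and -2.46 ± 0.17 for E2f7, -2.34 ± 0.15 and -1.76 ± 0.31 for E2f3 and -1.89 ± 0.23 and -1.96 ± 0.32 for E2f8. E2f2 was at 34.2, 34.6 and 1.57 CPM in RA-deficient PL, a spread set by replicate 3. The 2 genes that rose in RA-sufficient PL were L3mbtl3 (15.4 to 19.4 CPM) and L3mbtl4 (24.2 to 41.1 CPM), which were at most 2.71 CPM in In/B and at most 4.42 CPM in RA-deficient PL. Their levels followed the groups in the same way as the Sertoli markers, and the part of Sertoli RNA in them was not tested.

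The genes that PRC1.6 silences in ES cells were mostly higher in the PL groups. Of 15 listed, 11 passed in RA-sufficient PL against In/B (8 higher, 3 lower) and 12 in RA-deficient PL against In/B (10 higher, 2 lower), with medians of 0.51 and 1.15. These counts stand beside 33.8% of all genes higher and 31.2% lower in RA-sufficient PL, and 18.4% and 18.3% in RA-deficient PL. Sycp3, an axial element protein, was at 81.0 to 104 CPM in In/B, 403 to 612 CPM in RA-sufficient PL and 532 to 701 CPM in RA-deficient PL, a log2 fold change of 2.48 ± 0.18 and 2.80 ± 0.16 (adjusted p = 1.64e-05 and 3.85e-05), and 660 of its exon bases overlap Chpt1 on the opposite strand. Smc1b, a meiotic cohesin, rose by 1.34 ± 0.14 and 1.68 ± 0.11, and Sycp1, of the central synaptonemal complex, rose by 1.33 ± 0.20 and 1.51 ± 0.22. Tuba3a and Tuba3b, testis tubulins with 97.5% identity to a copy over 684 bases, went the other way, at -1.41 ± 0.16 and -1.30 ± 0.31 in RA-sufficient PL and -0.69 ± 0.23 and -1.32 ± 0.11 in RA-deficient PL. Ddx4 was also lower in RA-sufficient PL (-0.32 ± 0.10, adjusted p = 0.0172), and in RA-deficient PL it was at 0.05 ± 0.10 and did not pass.

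Slc25a31, a germ cell ADP/ATP carrier used as a marker of PRC1.6 loss, was at 164, 193 and 200.5 CPM in In/B, 158, 159 and 183 CPM in RA-sufficient PL and 224, 242 and 225 CPM in RA-deficient PL. It was thus transcribed in all 9 libraries, and it was higher in RA-deficient PL by 0.48 ± 0.12 against In/B and 0.46 ± 0.10 against RA-sufficient PL (adjusted p = 0.015 and 0.0196). Between the PL groups 6 of the 15 passed, all higher in RA-deficient PL, against 11% of all genes. Dazl, an RNA-binding protein of germ cells, had the largest of these differences (0.99 ± 0.12, adjusted p = 0.00257), with 953 to 1198 CPM in RA-sufficient and 1982 to 2362 CPM in RA-deficient PL, and its promoter held none of the 3 motifs. Taf7l (0.61 ± 0.11, adjusted p = 0.00962) and Stag3 (0.53 ± 0.12, adjusted p = 0.0218) were also higher. Of the genes with printed promoters, Mael was at 338 to 347 CPM in In/B, 412 to 474 CPM in RA-sufficient PL and 574 to 685 CPM in RA-deficient PL, and Ddx4 was at 532 to 539.6, 396 to 423 and 449 to 527 CPM, both chosen after their motifs were seen. The count between the PL groups was 2 to 4 without any 1 library other than replicate 3 of RA-deficient PL, 7 without that one, and 3 with scaling by library size alone, when 1545 to 2255, 6621 and 3407 of all genes passed.

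**Figure D5:**
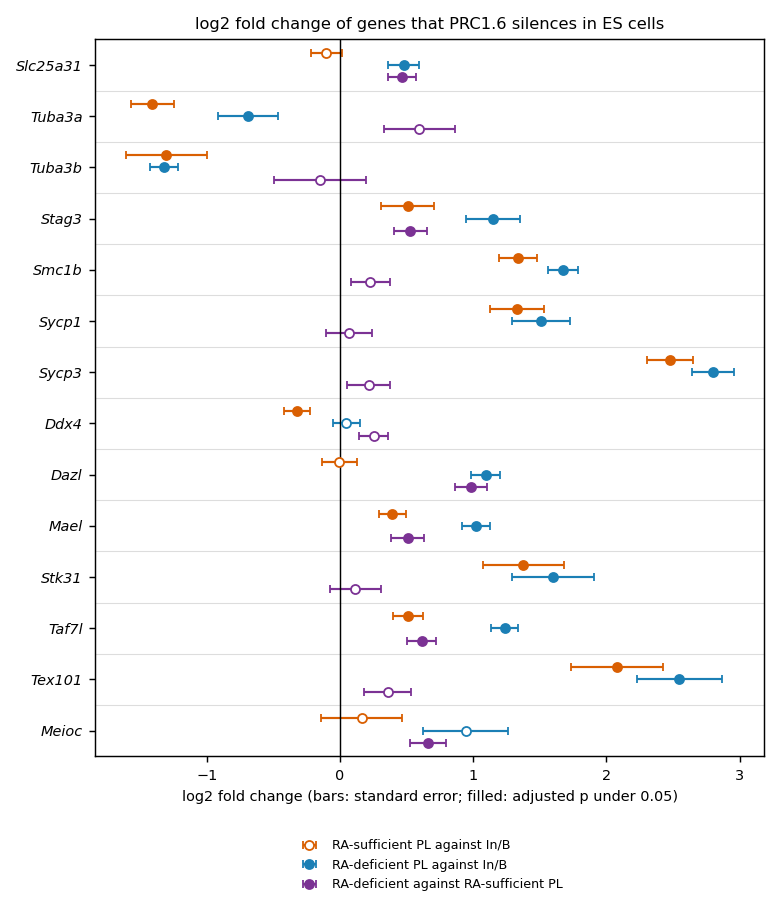
The log2 fold changes of 14 of the 15 genes that PRC1.6 silences in ES cells are plotted for the 3 comparisons, with standard errors as bars and filled points where a gene passed edgeR's quasi-likelihood test (adjusted p under 0.05). In the comparisons with In/B, Sycp3 lay farthest to the right at 2.48 and 2.80, and Tuba3a and Tuba3b lay to the left of 0. The differences between the PL groups were all under 1.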

How the data were processed

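Counts of reads per gene, raw and without normalization, were deposited by the authors in a single table of 24505 genes and 9 libraries, of which 0 columns were left unused. The authors had made stranded poly(A) libraries, trimmed their single-end reads (cutadapt 1.9), aligned these to mm9 (STAR 2.5.2b) and counted them with featureCounts. The annotation, the use of strand and the treatment of reads with several matches are not given in the sources used here, so overlapping genes and near-identical copies can share counts. RNA came from independent cell preparations, given as 2 or 3 without a number for each group, so that in a group of 3 libraries some may share a preparation, and the p-values measure the spread between libraries.

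Pairs of groups (n = 3 libraries each) were compared with edgeR 4.0.16 in R 4.3.3, with TMM scaling, filterByExpr, the quasi-likelihood test and Benjamini-Hochberg adjustment over all genes tested. CPM are TMM-normalised over all 9 libraries, and CPM per kb were divided by the union exon length in GENCODE M1, on the mm9 build. Log2 fold changes carry their standard error, |log2 fold change|/√F. Near-identical copies are alignments of the exons to other loci of at least 500 bases and 95% identity. The script for the tests was tested on simulated data.

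The 10 members and all lists of cofactors, other PRC1 subunits, paralogs, ES cell targets and markers were chosen with earlier results of these data known, the lists from general knowledge. Besides the members, the genes named are at most the 5 of lowest p per list and comparison among those past an adjusted p of 0.05 and an absolute log2 fold change of 1, Tfdp1, Wdr5, Hdac1, Hdac2, Slc25a31, Stag3, Smc1b, Tuba3a and Tuba3b, the other PCGF genes and the 3 most similar genes to 4 members. Mael, Ddx4, Meioc, Scml2, Cbx7, E2f1, E2f4, E2f5 and the markers Rec8, Kit, Dmrt1 and Ccnd2 fall outside this rule. They were named after their motifs, values or tests were seen. The marker Uchl1 was named because its promoter drives the EGFP. Alternatives were RLE factors or library size alone, no filter or a mean of at least 50 counts, 1 fit of all 9 libraries, the replicate number as a block, DESeq2 1.42.0, an added fold threshold and each library left out in turn. Total counts of 12612959 to 27042274 limit the precision, and 3 counts correspond to 0.111 to 0.238 CPM before TMM scaling. Python 3.11.15 with matplotlib 3.10.9 drew the figures. The counts over the target list include 1 gene that is not named.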

Additional observations from a re-analysis of the deposited data

Results flagged for a closer look

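Direct comparison of RA-deficient with RA-sufficient PL (3 libraries each) marked 25 of the listed genes as differing between the groups, with an adjusted p of at most 0.0416 by edgeR's quasi-likelihood test. The lists held 10 members, 7 cofactors, 18 other PRC1 subunits, 12 paralogs and 15 ES cell targets. Over all 15352 genes tested, 23.6% passed in this comparison, 11% higher and 12.6% lower. Both groups were also set against the same In/B libraries. Among the members these were Mga, with a log2 fold change of 0.58, and L3mbtl2, with 0.71. Among cofactors Ehmt1 differed by 0.81 and Ehmt2 by 0.51.

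Subunits of other PRC1 complexes that were higher in RA-deficient PL were Bcor (2.21), Pcgf2 (1.63), Cbx2 (1.59), Auts2 (1.11), Kdm2b (0.86), Pcgf3 (0.79), Bmi1 (0.61), Phc1 (0.59), Scml2 (0.58) and Pcgf5 (0.52), and Cbx6 was lower (-1.52). Of the paralogs, E2f7 (1.10), E2f5 (0.92) and E2f4 (0.74) were higher and L3mbtl4 was lower (-3.62). Of the genes silenced by PRC1.6 in ES cells, Dazl (0.99), Meioc (0.66), Taf7l (0.61), Stag3 (0.53), Mael (0.51) and Slc25a31 (0.46) were higher. The Sertoli marker sum was 2808 to 3644 CPM in RA-sufficient PL and 286 to 503 CPM in RA-deficient PL. Of the 7 spermatogonial markers 5 were higher and 1 lower in RA-deficient PL by the same test (median over the 7 of 1.84 on the log2 scale). Their sum was 808 to 928 CPM in RA-sufficient PL and 3124, 3252 and, in replicate 3, 1320 CPM in RA-deficient PL. Most of that sum was Uchl1, whose promoter drives the EGFP used for sorting. The part of Sertoli or spermatogonial RNA in these differences was not tested.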

How the results depend on the processing

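The changes of E2f6 and Pcgf6 against In/B in both PL groups kept their direction and their side of the threshold under every alternative run, and that of Mga in RA-deficient PL against In/B did so under every one except the added fold threshold, which it missed at 0.98. With the added threshold of an absolute log2 fold change over 1, the members that passed numbered 3, 2 and 0 in RA-sufficient PL against In/B, RA-deficient PL against In/B and RA-deficient against RA-sufficient PL. The ES cell targets that passed numbered 7 in the first, 9 higher and 1 lower in the second and 0 in the last. Lower counts follow from the stricter threshold. Leaving out each library in turn gave 3 to 6 members in RA-deficient PL against In/B (3 without any In/B library or without RA-deficient replicate 2), and between the PL groups 0 to 5 members (0 without RA-sufficient replicate 3, 5 without RA-deficient replicate 3) and 2 to 7 targets. All genes that passed ranged over the same libraries from 3562 to 6840 in the former comparison, and in the latter from 1545 to 6621, with 1668 without RA-sufficient replicate 3 and 6621 without RA-deficient replicate 3, against 3629 with all libraries. Between the PL groups scaling by library size alone gave 1 member and 3 targets (3407 of all genes), and a single fit of all 9 libraries and DESeq2 gave 4 members each (4838 and 4970 of all genes). Library size alone moved the median log2 fold change of all genes from -0.09 to -0.27 between the PL groups and from 0.00 to -0.31 in RA-deficient PL against In/B. The causes were not tested.

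Values that changed sign had not passed the test. In RA-sufficient PL against In/B these were Max (-0.0035 in the single fit, -0.0089, -0.021 and -0.19 without In/B replicates 2 and 3 and RA-sufficient replicate 1, and -0.19 to 0.14 over all libraries left out), Rnf2 (0.0062 with a mean of at least 50 counts, 0.052 and 0.13 without In/B replicates 2 and 3, range -0.33 to 0.13) and Rybp (-0.0039 without a filter, -0.019 in the single fit, -0.017 and -0.077 without In/B replicate 3 and RA-sufficient replicate 1, range -0.077 to 0.10). In RA-deficient PL against In/B they were L3mbtl2 (-0.058 with library size alone) and Ring1 (0.079, 0.097 and 0.32 without In/B replicates 2 and 3 and RA-deficient replicate 3, range -0.43 to 0.32). Between the PL groups Ring1 turned to -0.12 with library size alone and to -0.038, -0.29 and -0.033 without RA-sufficient replicate 2 and RA-deficient replicates 1 and 2, with a range of -0.29 to 0.45.

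No pairing of the libraries by replicate number was seen. Same-numbered libraries of different groups deviated from their group means with correlations of -0.28 to 0.20 across genes, and differently numbered ones with -0.23 to 0.25. With 3 libraries in a group these deviations are tied to each other, so the check cannot exclude a pairing. With the replicate number as a block, 5, 5 and 2 members passed in the 3 comparisons, as without it, the targets numbered 11, 13 and 5, Rnf2 was at 0.011 in RA-sufficient PL against In/B and Ring1 at -0.10 between the PL groups, and all genes past the threshold went from 9748 to 8796, from 5459 to 4797 and from 3629 to 2696.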
